A study of Mus musculus with 38 samples.

Results

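The genes described here make, conjugate, sense and move bile acids in the liver: Cyp7a1, Cyp8b1, Cyp27a1, Cyp7b1, Baat, Nr1h4, Nr0b2, Abcb11, Slc10a1 and Abcb4. They were picked by exact gene symbol from knowledge of the pathway, and they are 10 of the 18820 genes that the array reported through a probe with a single symbol. Each of the 10 had 1 such probe. The study asked what chronic exposure to haloperidol, a drug against psychosis whose main target is the dopamine D2 receptor, does to gene expression in mice. Mice of the inbred strain C57BL/6J received haloperidol or placebo, the drug being given in slow-release pellets for 30 days, and total RNA of whole brain or liver was hybridised to Affymetrix arrays. The groups were haloperidol liver (9 arrays), placebo liver (9 arrays), haloperidol brain (10 arrays) and placebo brain (10 arrays), each array from a separate mouse within its tissue. The labels give no age, sex, dose or feeding state. Arrays are named below by treatment and the tag in their title, such as 4T.

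Bile acids are made from cholesterol in hepatocytes. In the classic pathway CYP7A1 takes the first and rate-limiting step, and CYP8B1 then adds the 12-alpha hydroxyl group that turns the product towards cholic acid. In the alternative pathway CYP27A1 oxidises the cholesterol side chain and CYP7B1 hydroxylates the resulting oxysterols. BAAT joins the finished acids to taurine or glycine. SLC10A1 (NTCP) takes bile salts up from blood, ABCB11 (the bile salt export pump) secretes them into bile, and ABCB4 (MDR2) moves phospholipid into bile, where it shields the duct lining from bile salts. The bile acid receptor FXR, encoded by Nr1h4, induces Nr0b2, which encodes the repressor SHP, and also induces Abcb11. SHP in turn restrains Cyp7a1 and Cyp8b1, in part through the nuclear receptor LRH-1, encoded by Nr5a2.

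The 250 bases before the annotated start were searched for motifs of nuclear receptors and for the E-box. They are shown for the repressor gene, the export pump gene and the cholic acid gene, the only searched genes of the set with a match. Cyp27a1, Nr1h4, Slc10a1 and Abcb4 were searched too and held no match. The sequences are from RefSeq (GRCm38.p6), are given 5′ to 3′ on the gene's own strand, and have the matches in capitals. In Nr0b2 (chr4:133553126-133553375, plus strand) the capitals mark CACGTG, the E-box that clock and other helix-loop-helix factors can bind, 195 to 190 bases before the start, and TCAAGG, the core of the LRH-1 element, at 68 to 63 and at 35 to 30 bases before it.
Nr0b2: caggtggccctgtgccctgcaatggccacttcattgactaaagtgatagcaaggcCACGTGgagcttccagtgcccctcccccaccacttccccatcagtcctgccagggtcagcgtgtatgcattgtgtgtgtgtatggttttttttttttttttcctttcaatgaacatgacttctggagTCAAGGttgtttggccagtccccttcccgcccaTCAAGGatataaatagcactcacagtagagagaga
In Abcb11 (chr2:69342617-69342866, minus strand) the capitals mark GGCCATTGACC, a match to the FXR inverted repeat, searched as the half-sites GGNCA and TGNCC with any single base between them, 62 to 52 bases before the start.
Abcb11: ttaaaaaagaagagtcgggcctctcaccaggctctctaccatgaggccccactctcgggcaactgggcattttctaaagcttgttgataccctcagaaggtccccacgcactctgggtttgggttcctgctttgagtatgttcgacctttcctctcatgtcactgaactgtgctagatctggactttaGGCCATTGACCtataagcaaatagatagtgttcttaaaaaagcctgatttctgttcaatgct
In Cyp8b1 (chr9:121916306-121916555, minus strand) the capitals mark CAAAGTCCA, a core of HNF4 sites, 67 to 59 bases before the start.
Cyp8b1: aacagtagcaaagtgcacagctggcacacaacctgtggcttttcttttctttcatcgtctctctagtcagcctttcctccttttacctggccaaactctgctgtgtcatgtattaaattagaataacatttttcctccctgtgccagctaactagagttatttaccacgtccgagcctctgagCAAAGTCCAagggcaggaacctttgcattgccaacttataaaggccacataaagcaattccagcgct
Both strands were searched, and the marked matches do not overlap in these windows. Only the letters given above were searched. Variants of the motifs, also of the LRH-1 core, were not, so unmarked or overlapping sites may be present. Among 32851 mouse promoters of the same length, 6.02% held the E-box, 12.5% held TCAAGG, 0.575% held the inverted repeat and 0.384% held CAAAGTCCA. A match describes letters in the window and is no measure of binding. The promoter table matched 7 of the 10 genes, and Cyp7a1, Cyp7b1 and Baat were not among them.

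The values are log2 expression values after robust multi-array average (RMA) normalization by the authors. Hepatocyte identity was plain in the liver arrays, where Alb, which encodes serum albumin, lay between 13.15 and 13.27 in haloperidol livers and between 13.13 and 13.23 in placebo livers. In brain, Snap25, a synaptic gene of neurons, averaged 12.79 ± 0.047 in the haloperidol arrays and 12.80 ± 0.062 in the placebo arrays (SD, n = 10 each). Arrays of the same liver group correlated with each other at 0.964 to 0.988 over probes, and those of the same brain group at 0.968 to 0.992. The median over all probes of an array was 4.89 ± 0.090 in haloperidol livers and 4.80 ± 0.082 in placebo livers (SD, n = 9 each), a difference of 0.086 (two-sided exact permutation test, p = 0.0490). The number of arrays limits the precision throughout.

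In the liver, no bile acid gene passed the test after 30 days of haloperidol. Of the 10 genes 0 reached an adjusted p of 0.05 (limma, Benjamini-Hochberg over 12547 genes tested), and the share over all genes tested was also 0%, the smallest adjusted p of any gene being 0.251. At an unadjusted p under 0.05, limma and the exact permutation test each counted 2 of the 10, Cyp7b1 and Baat, both lower in haloperidol livers. The share of genes tested that limma counted lower at that level was 6.76%, and counting both directions it was 10.5%. The arrays of the treatments overlapped for all 10 genes, against 0.00797% of genes tested without overlap. The difference was below 0 for 5 genes and above 0 for 5, with a median of -0.0081 on the log2 scale, beside -0.024 over all genes tested, of which 7203 were lower and 5344 higher. In whole liver, fewer cells of a type and less RNA per cell cannot be told apart.

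**Figure D1:**
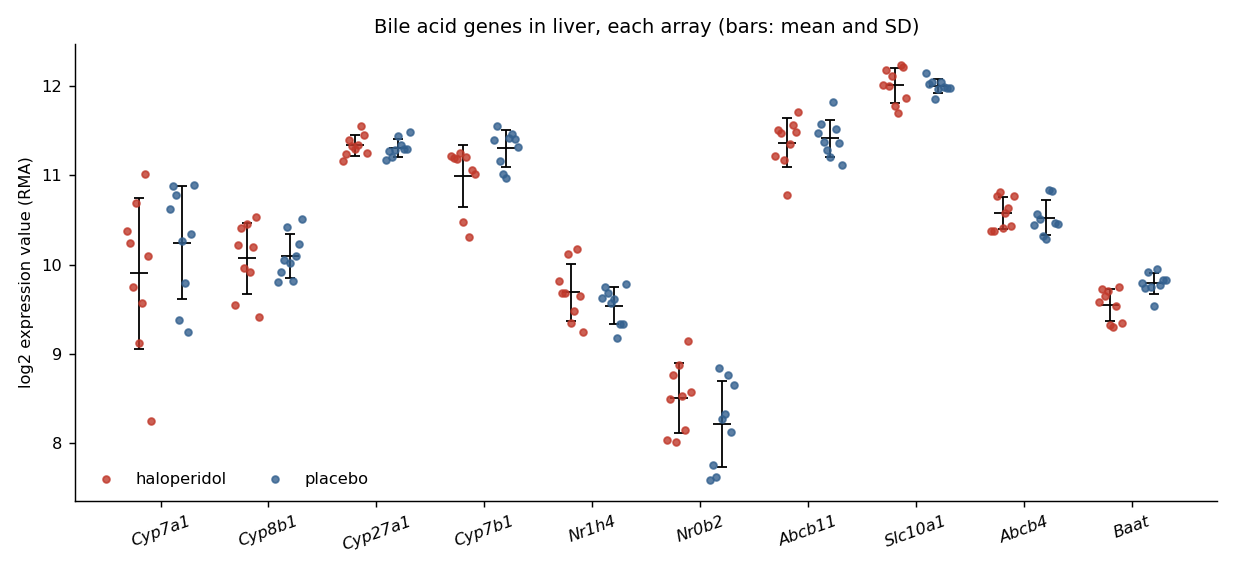
Log2 expression value of each bile acid gene in every liver array, haloperidol to the left of placebo, with group means. Cyp7a1 and Nr0b2 spread widely within both treatments, Cyp27a1 and Slc10a1 little, and the haloperidol arrays for Baat all lie below the placebo mean of 9.79.

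Cyp7a1 (chr4:6265612-6275632, GRCm38.p6), the rate-limiting enzyme gene, was the most variable of the set. Its lowest, median and highest log2 values were 8.25, 10.10 and 11.02 in haloperidol livers, and 9.24, 10.34 and 10.90 in placebo livers. Of the haloperidol arrays, 5 of 9 lay below the placebo mean and the others above it, so the treatments were interleaved. The mean was 9.90 ± 0.846 in haloperidol livers and 10.24 ± 0.634 in placebo livers (SD, n = 9 each), a log2 difference of -0.34 (SE 0.313, adjusted p = 0.697, limma). The 95% interval of the difference ran from -0.995 to 0.309, or from 0.502 to 1.24 as a fold. Changes within that interval, a fall to 0.502 or a smaller rise, could not be told from none with these arrays. Its spread within treatments exceeded that of 99.6% of genes tested. With arrays weighted by their quality the difference was -0.14, and leaving out 1 array at a time it lay between -0.48 (without haloperidol 3R) and -0.14 (without haloperidol 4N).

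Cyp8b1 (chr9:121914356-121916305), whose product sets the share of cholic acid, had 9.41, 10.20 and 10.53 as its lowest, median and highest log2 values in haloperidol livers, and 9.81, 10.05 and 10.51 in placebo livers. The haloperidol arrays covered the placebo range and ran further at the low end. The log2 difference was -0.02 (SE 0.145, 95% interval -0.32 to 0.28, adjusted p = 0.968, limma).

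Of the alternative pathway, Cyp27a1 (chr1:74713148-74737897), which encodes the mitochondrial enzyme that oxidises the sterol side chain, spanned 11.16 to 11.55 in haloperidol livers with a median of 11.34, and 11.17 to 11.49 in placebo livers with a median of 11.30. Its log2 difference was 0.03 (SE 0.064, 95% interval -0.11 to 0.16, adjusted p = 0.916, limma), and only 3.91% of genes tested had a smaller spread within treatments. This was the tightest measurement among the 10 genes.

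Cyp7b1 (chr3:18071944-18243890), the oxysterol 7-alpha-hydroxylase gene, was lower in haloperidol livers without passing the test. Its lowest, median and highest log2 values were 10.32, 11.18 and 11.25 in haloperidol livers, and 10.97, 11.40 and 11.56 in placebo livers. All 9 haloperidol arrays lay below the placebo mean, 6 of the 9 placebo arrays lay above every haloperidol array, and arrays haloperidol 3R (10.32) and haloperidol 2T (10.48) lay below every placebo array. The means were 10.99 ± 0.347 in haloperidol livers and 11.30 ± 0.205 in placebo livers (SD, n = 9 each), which gives a fold of 0.807. The log2 difference was -0.31 (SE 0.127, 95% interval -0.57 to -0.046, adjusted p = 0.421, limma; unadjusted exact permutation p = 0.0265, two-sided). By p-value it stood at rank 697 of the genes tested. Without array haloperidol 3R the difference was -0.23, and without haloperidol 2T it was -0.25.

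Baat (chr4:49489416-49507915), which encodes the conjugating enzyme, showed the smallest unadjusted p of the set. Its lowest, median and highest log2 values were 9.30, 9.58 and 9.75 in haloperidol livers, and 9.54, 9.79 and 9.95 in placebo livers. All 9 haloperidol arrays lay below the placebo mean, 4 of them lay below every placebo array, and 7 placebo arrays lay above every haloperidol array. The means were 9.55 ± 0.180 in haloperidol livers and 9.79 ± 0.117 in placebo livers (SD, n = 9 each), a fold of 0.844 with a 95% interval from 0.755 to 0.945. The log2 difference was -0.24 (SE 0.078, adjusted p = 0.367, limma; unadjusted exact permutation p = 0.00354, two-sided), at rank 168 by p-value, and it did not pass over all genes tested. Leaving out 1 array at a time, it stayed between -0.28 and -0.21.

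**Figure D2:**
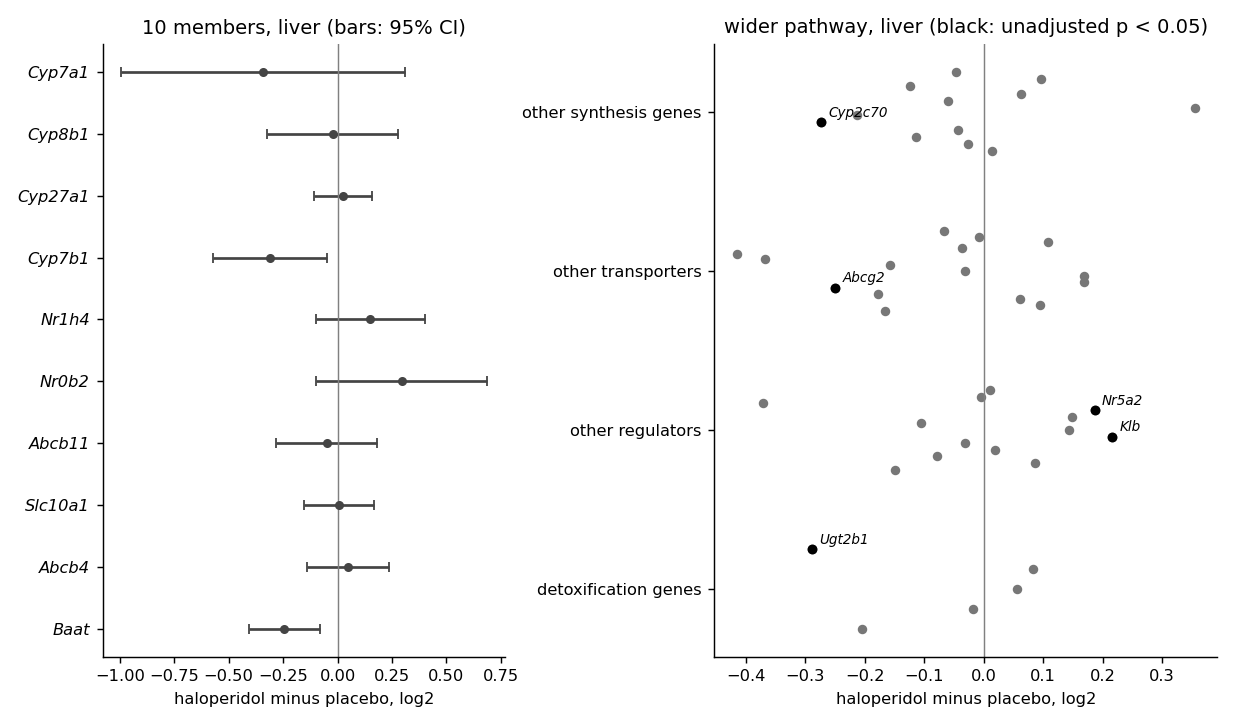
Left, log2 difference between haloperidol and placebo livers for each bile acid gene with its 95% interval; right, the same difference for each tested gene of the 4 wider lists, black where the unadjusted p was under 0.05. The intervals of Cyp7b1 and Baat lie below 0, the other 8 cross it, and on the right Cyp2c70, Abcg2 and Ugt2b1 are lower and Nr5a2 and Klb higher, none past the adjusted test.

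Of the regulators, Nr1h4 (chr10:89454234-89533645), which encodes the bile acid receptor FXR, had 9.25, 9.68 and 10.18 as its lowest, median and highest log2 values in haloperidol livers, and 9.18, 9.61 and 9.78 in placebo livers. The 3 highest arrays, haloperidol 3R, 2N and 1B, were haloperidol arrays, and the lowest was a placebo array. The difference of 0.15 (SE 0.120, 95% interval -0.10 to 0.40, adjusted p = 0.655, limma) was within the spread between arrays. It was 0.063 with the array median subtracted, a step that lowers every liver difference by 0.086. The difference was 0.24 with arrays weighted by quality, 0.088 without haloperidol 3R and 0.096 without haloperidol 2N. Across arrays Nr1h4 had r = 0.50 with the array median.

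Nr0b2 (chr4:133553376-133556686), the SHP gene whose promoter is printed above, had 8.01, 8.53 and 9.15 as its lowest, median and highest log2 values in haloperidol livers, and 7.58, 8.27 and 8.84 in placebo livers. Arrays placebo 1L (7.58), 1T (7.62) and 1N (7.75) lay below every haloperidol array, and 2 haloperidol arrays lay above every placebo array. The difference was 0.29 (SE 0.188, 95% interval -0.10 to 0.68, adjusted p = 0.574, limma), a fold of 1.23, and the spread within treatments exceeded that of 95.6% of genes tested. The low placebo arrays share the digit 1 in their tags, whose meaning the labels do not explain. The 5 liver arrays with that digit averaged 7.90 for Nr0b2, against 8.62, 8.41 and 8.62 for digits 2, 3 and 4. Liver arrays of the same digit deviated together from their group means, with a mean r of 0.131 over 32 pairs, against -0.105 over the 121 pairs of different digits. With the digit as a block in the fit the difference was 0.21 for Nr0b2 (adjusted p = 0.662, limma), -0.24 for Cyp7a1 (adjusted p = 0.832, limma), -0.29 for Cyp7b1 (adjusted p = 0.460, limma) and -0.25 for Baat (adjusted p = 0.355, limma). The permutation tests do not keep arrays within a digit.

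The differences of the 3 transporter genes were small beside their errors. Abcb11 (chr2:69238282-69342616), the export pump gene, had 10.79, 11.48 and 11.71 as its lowest, median and highest log2 values in haloperidol livers, and 11.12, 11.38 and 11.82 in placebo livers, a difference of -0.05 (SE 0.111, 95% interval -0.28 to 0.18, adjusted p = 0.904, limma). The highest array was a placebo array and the lowest a haloperidol array. Slc10a1 (chr12:80953185-80968705), the uptake carrier gene, spanned 11.70 to 12.24 in haloperidol livers, with a median of 12.02, and 11.86 to 12.15 in placebo livers, with a median of 11.99. Its difference was 0.0065 (SE 0.077, 95% interval -0.15 to 0.17, adjusted p = 0.984, limma), the placebo arrays lying inside the haloperidol range. Abcb4 (chr5:8893614-8959226), the phospholipid floppase gene, spanned 10.38 to 10.81 in haloperidol livers with a median of 10.58, and 10.29 to 10.84 in placebo livers with a median of 10.47. Its difference was 0.05 (SE 0.090, 95% interval -0.14 to 0.24, adjusted p = 0.878, limma), and it lay between 0.019 (without placebo 3L) and 0.089 (without placebo 3N) with 1 array left out. A p that misses the threshold does not show that the levels were equal; the intervals give the sizes these arrays allow.

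The rest of the pathway gave the same picture in counts, with 0 genes past the adjusted test in each of 4 further lists (limma). Of 12 tested genes of other synthesis steps, 8 were lower and 4 higher in haloperidol livers, with a median difference of -0.045 and 1 gene at an unadjusted p under 0.05. That gene was Cyp2c70, the enzyme that makes muricholic acids in mice, at 11.10 in haloperidol livers and 11.37 in placebo livers, a difference of -0.27 (SE 0.118, adjusted p = 0.434, limma). Cyp46a1, a cholesterol hydroxylase gene better known from neurons, was at 0.35 (adjusted p = 0.510, limma) and Scp2, a peroxisomal thiolase and sterol carrier gene, at -0.12 (adjusted p = 0.503, limma). Of 15 tested genes of other transporters, 10 were lower and 5 higher, with a median of -0.037. The only one at an unadjusted p under 0.05 was Abcg2, an efflux pump gene, at 8.67 in haloperidol livers and 8.92 in placebo livers, a difference of -0.25 (SE 0.095, adjusted p = 0.405, limma). Slc51b, a subunit of the basolateral bile acid exporter, was at -0.41 (adjusted p = 0.484, limma), and Abcc4, a further basolateral exporter gene, at -0.18 (adjusted p = 0.531, limma). Slc51b averaged 4.33 in haloperidol livers and 4.74 in placebo livers, near the limit of 3.92 under which genes were left out as dim.

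Among 13 tested genes of other regulators, 6 were lower and 7 higher, with a median of 0.010, and 2 were higher at an unadjusted p under 0.05. Nr5a2, the LRH-1 gene named above, averaged 9.46 in haloperidol livers and 9.27 in placebo livers, a difference of 0.19 (SE 0.067, adjusted p = 0.400, limma). Klb, the co-receptor gene for the intestinal hormone FGF15, was at 0.22 (adjusted p = 0.468, limma), and Nr1h3, which encodes the oxysterol receptor LXR-alpha, was at -0.10 (adjusted p = 0.565, limma). Of 5 tested genes of bile acid detoxification, 3 were lower and 2 higher. Ugt2b1, a glucuronosyltransferase gene, averaged 11.37 in haloperidol livers and 11.66 in placebo livers, a difference of -0.29 (SE 0.096, adjusted p = 0.380, limma), with Sult2a8 at 0.08 and Cyp3a25 at 0.06. Over these 4 lists 5 genes reached an unadjusted p under 0.05, 3 of them lower, in a liver where 10.5% of all genes tested did so.

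Across the 18 liver arrays the set was also examined pair by pair. Of the 45 pairs, 10 reached an unadjusted p under 0.05 for Pearson's r (two-sided permutation test, 100000 resamples) and 1 passed adjustment over the 45. That pair was Cyp7a1 and Nr1h4, with r = 0.726 (adjusted p = 0.0311, permutation test) and Spearman's rho = 0.769 (adjusted p = 0.0144, permutation test). The correlation was 0.937 within the 9 haloperidol arrays and 0.685 within the 9 placebo arrays, and it was 0.666 without the 2 arrays farthest from the median of Cyp7a1. With treatment means removed it was 0.852, and with tag digit means removed it was 0.767. The call was lost without array haloperidol 2T, 3B or 3R or placebo 3T, where adjusted p lay between 0.0540 and 0.0747 by the permutation test, while r over all 18 left-out arrays stayed between 0.694 and 0.779. These points share their array, and therefore its RNA and its normalization. The tag digits hold 4 or 5 liver arrays each, too few for a value within each.

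**Figure D3:**
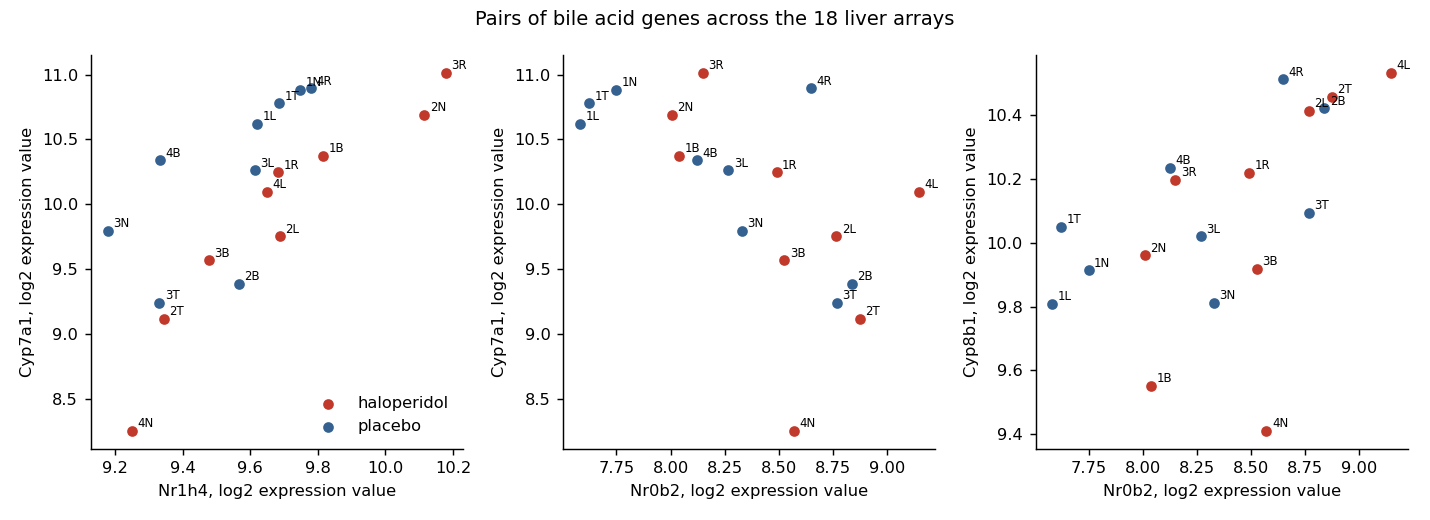
Each point is 1 of the 18 liver arrays, labelled by its tag, with log2 expression values on both axes, for Cyp7a1 against Nr1h4, Cyp7a1 against Nr0b2 and Cyp8b1 against Nr0b2. Cyp7a1 is high where Nr1h4 is high (r = 0.726) and low where Nr0b2 is high (r = -0.611), and Cyp8b1 is high where Nr0b2 is high (r = 0.537).

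The pairs of the repressor with the enzymes it is known to restrain had correlations of opposite sign. Cyp7a1 and Nr0b2 had r = -0.611 (adjusted p = 0.105, permutation test) and rho = -0.688 (adjusted p = 0.0542, permutation test), with r = -0.507 within haloperidol arrays and -0.700 within placebo arrays. Cyp8b1 and Nr0b2 had r = 0.537 (adjusted p = 0.134, permutation test) and rho = 0.631 (adjusted p = 0.0878, permutation test), with r = 0.592 within haloperidol arrays and 0.646 within placebo arrays. Neither passed adjustment, nor did either with tag digit means removed, but with the array median subtracted Cyp7a1 with Nr0b2 did (r = -0.643, adjusted p = 0.0425, permutation test). Without the 2 arrays farthest from the median of the first gene, r was -0.650 for Cyp7a1 with Nr0b2 and 0.732 for Cyp8b1 with Nr0b2. Of the other pairs at an unadjusted p under 0.05, Cyp7a1 with Slc10a1 had r = 0.624 (adjusted p = 0.105, permutation test), Nr1h4 with Slc10a1 0.547, Slc10a1 with Baat 0.541 and Cyp7b1 with Baat 0.580. Abcb11 with Abcb4, both pumps of the canalicular membrane, had r = 0.519, Cyp8b1 with Cyp27a1 0.524 and Cyp7a1 with Baat 0.495, the last of which was 0.129 without the 2 farthest arrays. The adjusted p of these last pairs lay at 0.134 or 0.163 (permutation test).

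Bile acid synthesis follows the time of day and feeding, so the genes were set against Arntl, a core clock gene, Pck1, a gene of fasting gluconeogenesis, and the array median. Of the 30 relations 0 passed adjustment and 7 reached an unadjusted p under 0.05 (permutation test, 100000 resamples). Arntl itself ranged widely, with 4.85, 6.53 and 8.19 as lowest, median and highest log2 values in haloperidol livers and 5.53, 6.07 and 7.77 in placebo livers. Nr0b2 followed Arntl with r = 0.602 and rho = 0.674 (adjusted p = 0.0850 and 0.0912, permutation test), and r was 0.743 within haloperidol arrays and 0.516 within placebo arrays. Cyp7a1 ran against Arntl with r = -0.513 (adjusted p = 0.173, permutation test), -0.317 within haloperidol arrays and -0.815 within placebo arrays. As for Nr0b2, the means of both genes varied by tag digit, but the arrays of the digits overlapped. Cyp7a1 lay between 10.25 and 10.88 in digit 1, and between 8.25 and 10.90 in digit 4. Differences of these genes between digits were not tested, and digits 1, 2 and 3 hold the treatments in unequal numbers. For digits 1, 2, 3 and 4, Arntl averaged 5.82, 7.07, 6.77 and 6.18 in liver, and Cyp7a1 averaged 10.58, 9.74, 9.98 and 9.90. The relations with Arntl were not computed with tag digit means removed. Cyp27a1 went with the array median (r = 0.627) and against Pck1 (r = -0.610), each at an adjusted p of 0.0850 by the permutation test. Without the 2 arrays farthest from the median of the measure, r was 0.435 with the array median and -0.415 with Pck1. Within haloperidol and placebo arrays, r was 0.566 and 0.756 with the array median, and -0.745 and -0.336 with Pck1. The part of clock phase, feeding, tag digit and array median in these results was not tested.

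The array median and the markers of other liver cells are given beside Cyp7b1 and Baat. Across arrays the array median had r = -0.502 with Cyp7b1 and -0.431 with Baat. Subtracting each array's median lowers every liver difference by 0.086, whatever the gene's r. The haloperidol difference was then -0.40 for Cyp7b1 (adjusted p = 0.198, limma) and -0.33 for Baat (adjusted p = 0.161, limma). Of 12 Kupffer cell genes, all were lower in haloperidol livers, 9 at an unadjusted p under 0.05 and 0 past the adjusted test (limma), with a median difference of -0.34. Over all genes tested 6.76% were lower at that unadjusted level, and the median difference was -0.024. Their mean level per array lay between 7.23 and 7.94 in haloperidol livers and between 7.33 and 8.21 in placebo livers, so the ranges overlapped, and all 12 genes were above the limit for dim genes. Adgre1, which encodes a macrophage surface receptor, was at -0.40 (adjusted p = 0.389, limma). Of 11 sinusoid and stellate genes 4 were lower and 7 higher, with a median of 0.017. Only Stab2 reached an unadjusted p under 0.05 (limma), at 0.22, and 0 passed the adjusted test. Of 9 hepatocyte genes 8 were higher, with a median of 0.035 and 0 at an unadjusted p under 0.05 (limma), and their mean level per array lay between 12.77 and 12.86 in haloperidol livers and between 12.77 and 12.80 in placebo livers. The part of these shifts in the values of Cyp7b1 and Baat was not tested.

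Hepatocytes differ along the lobule, and Cyp7a1 is a gene of the zone around the central vein. Of 10 pericentral genes 7 were lower in haloperidol livers, 1 at an unadjusted p under 0.05 (limma), with a median of -0.072. That gene was Rhbg, an ammonium transporter gene, at 6.98 ± 0.348 in haloperidol livers and 7.65 ± 0.181 in placebo livers (SD, n = 9 each), a difference of -0.67 (adjusted p = 0.251, limma). Of 6 periportal genes 4 were lower, 3 of them at an unadjusted p under 0.05 (limma): Cdh1 at -0.37, Aldh1b1 at -0.33 and Cyp2f2 at -0.14. Beside both zone lists, 7203 of all 12547 genes tested were lower, and 6.76% were lower at that unadjusted level. Of 10 genes of fasting, Fgf21, which encodes a liver hormone of fasting, was at 0.37 (adjusted p = 0.334, limma), Angptl4 at 0.27 and Tat at -0.23, with 0 past the adjusted test. At an unadjusted p under 0.05 (limma), 2 were higher and 1 lower, in a liver where 10.5% of all genes tested reached that level. Fgf21 averaged 4.60 in haloperidol livers and 4.23 in placebo livers, near the limit of 3.92 for dim genes. Of 15 clock genes 10 were higher and 5 lower, with 0 at an unadjusted p under 0.05 or past the adjusted test (limma).

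Likeness over the 18 liver arrays, after treatment means were removed, was used to name the 3 genes closest to each bile acid gene among all genes tested, as a description. Closest to Cyp7a1 were Angel2 (r = 0.854), Nr1h4 (0.852) and Fads2 (0.837), and most opposed to it were Selenos (-0.776), Ubxn1 (-0.766) and Gatad2a (-0.742). Nr1h4 had Fads2 (0.857), Cyp7a1 and Ttc39c (0.828), so the receptor gene and the enzyme gene were each among the other's 3 closest of 12547 genes. Cyp8b1 had Car3 (0.853), Cxcr3 (0.840) and Atg7 (0.838). Cyp7b1 had Aadat (0.840), Skap2 (0.836) and Cisd2 (0.777), and Cyp27a1 had Adam12 (0.840), Pir (0.829) and Atp23 (0.829). Baat had Sdhaf1 (0.917), Pmpcb (0.911) and Eif1b (0.895), the first a gene of succinate dehydrogenase assembly and the second of a mitochondrial processing peptidase. Slc10a1 had Pum3 (0.935), Psenen (0.919) and Ipo11 (0.909), Abcb11 had Srsf10 (0.851), Sat1 (0.841) and Cacul1 (0.836), Abcb4 had Nfe2l2 (0.848), Sh3d19 (0.819) and Nadk2 (0.816), and Nr0b2 had Pid1 (0.814), Akr1a1 (0.804) and Pgs1 (0.799).

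In whole brain only 3 of the 10 genes were above the limit set for dim genes, and 0 of the 3 passed the adjusted test (limma), where 30.4% of genes tested did and 0.104% had arrays that did not overlap between treatments. At an unadjusted p under 0.05 limma also counted 0 of the 3, against 44% of genes tested. Cyp27a1 had 6.93, 7.11 and 7.46 as its lowest, median and highest log2 values in haloperidol brains, and 7.13, 7.31 and 7.73 in placebo brains, a difference of -0.16 (SE 0.079, adjusted p = 0.120, limma). Of the haloperidol arrays, 6 of 10 lay below every placebo array. The array median itself was 6.19 ± 0.072 in haloperidol brains and 6.33 ± 0.044 in placebo brains (SD, n = 10 each), and with it subtracted the Cyp27a1 difference was -0.025 (adjusted p = 0.832, limma), while quantile normalization gave -0.075. Cyp7b1, which in brain acts on neurosteroids as well as oxysterols, had 7.46, 7.71 and 8.11 in haloperidol brains, and 7.42, 7.59 and 7.76 in placebo brains, a difference of 0.11 (SE 0.069, adjusted p = 0.213, limma). Abcb4 differed by -0.01 (SE 0.097, adjusted p = 0.931, limma). The other 7 genes were too dim for a test.

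**Figure D4:**
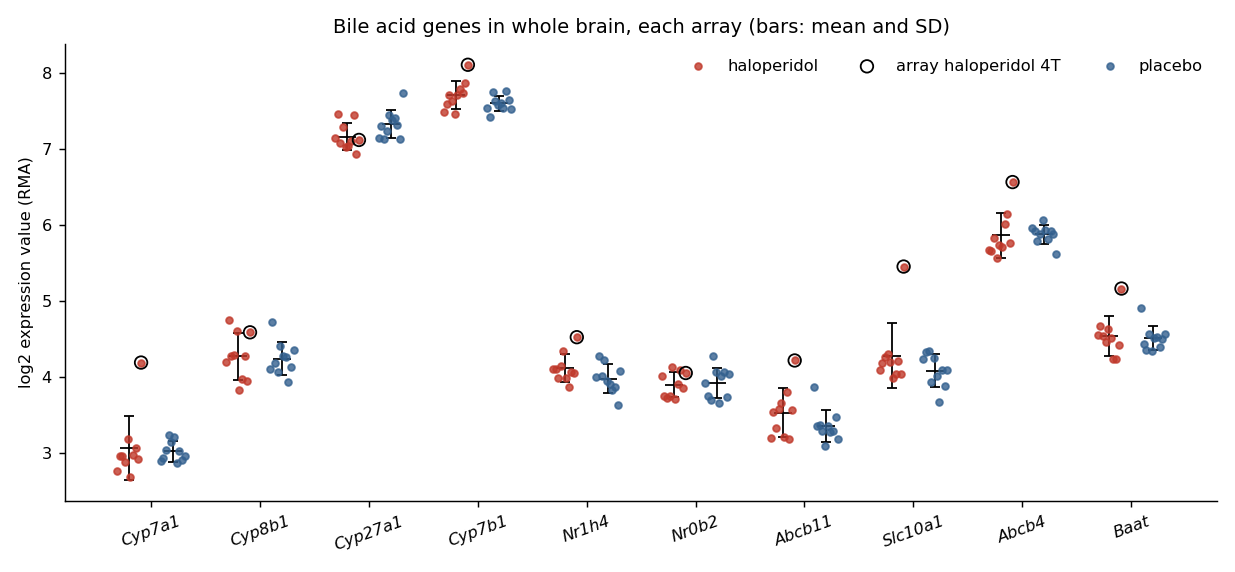
Log2 expression value of each bile acid gene in every brain array, haloperidol to the left of placebo, with group means. Array haloperidol 4T is the highest of the 20 brain arrays in 7 of the 10 genes, among them Slc10a1 at 5.45 and Cyp7a1 at 4.19.

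Array haloperidol 4T stood apart among the brains. It was the highest of 20 brain arrays for Cyp7a1, Cyp7b1, Nr1h4, Abcb11, Slc10a1, Abcb4 and Baat, and its Alb value was 11.11, against 3.93 to 4.51 in the other 19 arrays. Slc10a1 read 5.45 in that array and 3.67 to 4.34 in the others, and Cyp7a1 read 4.19 and 2.68 to 3.24. Without it the brain differences were -0.16 for Cyp27a1 (adjusted p = 0.141), 0.07 for Cyp7b1 (adjusted p = 0.377) and -0.09 for Abcb4 (adjusted p = 0.322), all by limma.

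The haloperidol difference of Cyp7b1 was unlike in the tissues by a test of the difference itself. The haloperidol difference was -0.31 in liver and 0.11 in brain, so that liver minus brain was -0.42 (SE 0.143, adjusted p = 0.0292, limma over 10869 genes tested in both tissues), where 23% of genes tested passed. All 9 haloperidol livers lay below the placebo liver mean, and 7 of 10 haloperidol brains lay above the placebo brain mean. Neither tissue's own difference passed its test. Without brain array haloperidol 4T, liver minus brain of Cyp7b1 was -0.38 (adjusted p = 0.0448, limma). With the array median subtracted it was -0.64 (adjusted p = 0.00273, limma). That step lowers liver minus brain for every gene, because it lowers each liver difference by 0.086 and raises each brain difference. The larger value is therefore no separate evidence about Cyp7b1. Liver minus brain was 0.19 for Cyp27a1 (adjusted p = 0.184, limma) and 0.06 for Abcb4 (adjusted p = 0.775, limma). The sorted values of the tissue means were up to 1.42 apart between liver and brain, while single arrays stayed within 0.234 of their own tissue's mean, so levels are not compared between tissues.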

How the data were processed

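Gene expression was measured on 38 Affymetrix arrays in 4 groups of mouse liver and brain. The deposited table held log2 expression values for 35556 probes. Per the submitters' processing notes, RMA and Affymetrix Expression Console were the tools the authors used, without versions; no hybridisation dates are given. The values were used as deposited, with 0 missing.

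Of the probes, 21218 carried 1 gene symbol in the platform annotation held by GEO, parts of which may be out of date, 1881 several and 12457 none. Of the first, 21185 matched RefSeq by Entrez ID and 0 symbols changed. A gene was the probe with 1 symbol and the highest mean over all arrays. Coordinates are those of RefSeq genes on GRCm38.p6. In each tissue the dimmest 33.3% of genes were left out (mean under 3.92 in liver and 5.52 in brain). Haloperidol was set against placebo tissue by tissue by lmFit and eBayes of limma 3.58.1 (R 4.3.3), with Benjamini-Hochberg adjustment over all genes tested and 0.05 as the threshold. The contrast of the tissues was fitted over all 38 arrays. Single genes were also tested by exact permutation over 48620 assignments of the liver arrays. Correlations used permutation tests in Python 3.11.15 with numpy 2.4.6 and pandas 2.3.3. The script was tested on simulated data.

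The text names the 10 genes of the set and, for each of them, the 3 of highest correlation, with the 3 lowest for Cyp7a1. No list held a gene past the threshold. From the other synthesis, transport, regulators, detoxification, periportal and fasting lists the 3 of smallest unadjusted p in liver are named. The remaining lists were not named by that rule. Snap25, Alb, Arntl, Pck1 and a few list genes outside that rule, such as Adgre1, Rhbg and Stab2, were chosen with values known. The set and the 14 lists (other synthesis, transport, regulators, detoxification, clock, fasting, hepatocyte, pericentral, periportal, bile duct and gallbladder, Kupffer, sinusoid and stellate, blood, pancreas) were chosen with earlier results of these data known. Of the lists that the results do not describe, bile duct and gallbladder had 4 of 6 genes lower, blood 3 of 4 and pancreas 1 of 1, with 0 past the adjusted test (limma) and 1, 1 and 0 at an unadjusted p under 0.05. Alternatives were other filters, array median subtraction, quantile normalization, blocks, array weights, another variance model and leaving out each array.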

Additional observations from a re-analysis of the deposited data

Results flagged for a closer look

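Of 40 combinations of gene and group, 6 held an array far from the rest of its group by Dixon's test, all in brain, and all but that of Cyp27a1 among genes too dim for a test there. Chance flags about 1 in 20 groups. Array haloperidol 4T was far above the other haloperidol brains for Slc10a1 (5.451, the next at 4.299), Cyp7a1 (4.187, the next at 3.177) and Baat (5.162, the next at 4.665). Array placebo 1L was far above the other placebo brains for Baat (4.903, the next at 4.56) and Abcb11 (3.869, the next at 3.474). For Cyp27a1, which was tested in brain, array placebo 4R was far above the other placebo brains (7.73, the next at 7.446). No liver group held such an array for any of the 10 genes. The haloperidol difference of Cyp7b1 was unlike in liver and brain, with liver minus brain at -0.422, and that difference passed its own test.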

How the results depend on the processing

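None of the 10 genes passed the adjusted test in liver under any alternative run, and Cyp7a1, Cyp7b1, Nr1h4, Nr0b2 and Baat kept their direction in all of them; of 290 liver values under alternatives 18 changed sign, all of Cyp8b1, Cyp27a1, Abcb11, Slc10a1 or Abcb4. With the array median subtracted the liver difference was -0.061 for Cyp27a1, -0.080 for Slc10a1 and -0.037 for Abcb4, the brain difference of Abcb4 was 0.12, and liver minus brain was -0.035 for Cyp27a1 and -0.16 for Abcb4. Quantile normalization gave 0.017 for Cyp8b1 in liver and 0.12 for Abcb4 in brain. Subtracting the array median lowers every liver difference by 0.086, the difference between the group means of the array median. In brain it raises every difference by the gap between those means. The sign changes under that subtraction are therefore arithmetic, as is the larger liver minus brain value of Cyp7b1. The cause of those under quantile normalization was not tested. Leaving out 1 array at a time, differences lay between -0.080 and 0.060 for Cyp8b1, -0.00085 and 0.048 for Cyp27a1, -0.092 and 0.023 for Abcb11, and -0.022 and 0.046 for Slc10a1 in liver, and between -0.090 and 0.021 for Abcb4 in brain. Liver genes past the threshold numbered 0, but 40 when all 38 arrays shared one estimate of the spread, and 0 to 1 with 1 array left out (1 without haloperidol 1B). With the array median subtracted 1 gene of the set passed in brain, Cyp7b1 at 0.25 (adjusted p = 0.0264, limma). Pairs of genes past adjustment numbered 1, but 4 with the array median subtracted (Cyp7a1 with Nr1h4 and with Nr0b2, Baat with Cyp7b1 and with Slc10a1), 2 with treatment means removed, 4 with tag digit means removed (Cyp7a1, Cyp27a1 and Nr1h4 with each other, Abcb11 with Abcb4) and 0 to 3 with 1 array left out (0 without haloperidol 2T, 3B or 3R or placebo 3T, 3 without haloperidol 4N, 2 without placebo 4R). The alternatives that remove treatment or tag digit means, or leave out brain array haloperidol 4T, were chosen after seeing the data. With the array median subtracted the relations of genes with array measures past adjustment numbered 2, Baat at -0.713 and Cyp7b1 at -0.678 against the array median, which by construction then stands on both sides. Exact permutation counted 2 genes at an unadjusted p under 0.05, and 1 to 2 with 1 array left out (1 without placebo 1N, 3N or 3T).

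Tags occur once in brain and once in liver for 18 tags, but arrays of the same tag did not deviate together (median r of their deviations 0.0011, range -0.318 to 0.249), so they are not treated as paired. With the tag as a replicate block, liver minus brain of Cyp7b1 was -0.42 (adjusted p = 0.0322, limma). With the tag digit as a replicate block the liver difference of Abcb11 was 0.014, and with the tag letter as a replicate block that of Slc10a1 was -0.015; the block changed no other sign or call. The number of arrays, and the unknown dates, dose and feeding state, limit these comparisons.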
